A study of Rattus norvegicus with 22 samples.

Results

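Chlorpyrifos (CPF) was compared with its vehicle in the 11 small RNA libraries of the rat hippocampus whose sample codes begin with 6 (CPF) or with 4 (control), out of 22 libraries in the series. The CPF group held 5 libraries, replicates 7 to 11 by their titles, from male Long Evans rats given 10 mg/kg CPF per day under the skin for 21 days. The control group held 6 libraries, replicates 6 to 11, from rats of the same sex and strain given only the vehicle, peanut oil, over 21 days. All rats were 11 weeks old at the start of dosing and 14 weeks old at sampling, and RNA came from the CA1 region. Fear conditioning was run in cohort A but not in cohort B, per the labels, which do not assign the libraries to a cohort or say what the first digit of a code stands for. Animal identifiers are not among the labels either, and p-values therefore reflect only how these libraries vary. Every microRNA (miRNA) name in the files was a member of the comparison, 468 in all.

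Chlorpyrifos is an organophosphate insecticide whose oxidised form blocks acetylcholinesterase, the enzyme that ends cholinergic signalling by splitting acetylcholine. MiRNAs are short RNAs that lower the translation or the stability of messenger RNAs, which they find mainly through their seed, bases 2 to 8. Some hippocampal miRNAs follow neuronal activity. The best known are those of the miR-132 and miR-212 genes, which lie side by side and are switched on together by the transcription factor CREB. miR-132-3p is also known for silencing the acetylcholinesterase transcript. Other miRNAs mark cell types that can enter a hippocampal dissection, such as those of the choroid plexus, a secretory tissue in the ventricles.

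The sequences of the miRNAs on which the results turn are given first, from RefSeq (GRCr8), 5′ to 3′ with the seed in capitals. Of the 468 names, 410 had a mature sequence there. The miR-132 and miR-212 genes each give a 5p and a 3p product, and the 3p products share a seed.
miR-132-3p: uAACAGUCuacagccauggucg
miR-212-3p: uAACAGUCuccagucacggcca
miR-132-5p: aCCGUGGCuuucgauuguuacu
miR-212-5p: aCCUUGGCucuagacugcuuacug
The 3p products were identical at 17 of 22 positions and the 5p products at 14 of the first 22. Both arms of miR-132 come from a hairpin, shown on its own strand with the mature arms in capitals.
Mir132 hairpin: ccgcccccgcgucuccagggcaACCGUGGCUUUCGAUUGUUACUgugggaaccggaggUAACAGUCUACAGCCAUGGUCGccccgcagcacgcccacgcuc

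The next set is shown because these miRNAs were far apart between libraries of the CPF group. None shares a seed with another of the set.
miR-448-3p: uUGCAUAUguaggauguccca
miR-1298: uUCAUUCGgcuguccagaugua
miR-34c-5p: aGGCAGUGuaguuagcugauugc
miR-204-5p: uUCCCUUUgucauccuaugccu
miR-182: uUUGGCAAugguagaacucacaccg
Members of the miR-30 family are shown because all of its tested names lay on the same side of 0. The members shown share the seed GUAAACA, as does miR-384-5p.
miR-30a-5p: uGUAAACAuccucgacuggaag
miR-30c-5p: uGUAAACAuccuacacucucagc
miR-30e-5p: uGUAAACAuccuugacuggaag

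Levels were deposited as reads per 1000000 miRNA reads (RPM). The reads behind them, recovered from the steps between low values, numbered 72669 ± 4663 per control library (SD, n = 6) and 73206 ± 15010 per CPF library (SD, n = 5), with CPF replicate 9 the shallowest at 47844. A read equalled 11.5 to 20.9 RPM. The floor of a usable level was set at 3 reads, or 34.5 to 62.7 RPM. The libraries named 286.3 ± 4.8 miRNAs in control and 285.2 ± 14.8 in CPF, and the 10 most abundant names took 77.1 ± 0.45% and 77.4 ± 0.39% of RPM. In 2-sided exact permutation tests none of these 3 measures passed (adjusted p = 0.950, 0.950 and 0.617). Neuronal miRNAs were present in all 11 libraries, with miR-9a-5p at 38074 to 60622 RPM, miR-128 at 5184 to 10015 RPM and miR-124-3p at 398 to 1126 RPM. Such miRNAs are shared by the regions of the hippocampus, so they do not check the CA1 label itself.

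CPF replicates 7, 8 and 9 stood apart from the other 8 libraries. Their miRNAs of the choroid plexus and of ciliated ependyma, a list of 9 names, took 0.229, 0.497 and 0.801% of RPM. CPF replicates 10 and 11 had 0.0875 and 0.0712%, and the controls 0.0769 to 0.110%. In bulk RNA, more cells of a type and more RNA per cell cannot be told apart. Each result was therefore also computed without these 3 libraries, which leaves 2 CPF libraries. Because the 3 were picked for their high values of this list, a smaller difference for the list without them is built in.

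The comparison asked which hippocampal miRNAs were higher or lower in rats given CPF. A single miRNA, miR-132-3p, rose, and no miRNA fell. It was 1 of 288 names tested with limma on log2(RPM + 1), or 0.347%, at a Benjamini-Hochberg adjusted p under 0.05. Without adjustment 15 of 288 (5.21%) had a p under 0.05, 9 of them higher (3.12%) and 6 lower (2.08%). The log2 fold change was above 0 for 141 of the 288 (49.0%), and its median over all was -0.02. Of the tested names 203 averaged at least 3 reads in a group. In 2 of these 203 (0.985%), miR-132-3p and miR-448-3p, every CPF library lay above every control library, and in 0 did every CPF library lie below. Tests on the recovered reads called more names. edgeR's quasi-likelihood test with TMM called 2 of 143 (1.40%), adding miR-1298, and DESeq2 3 of 423 (0.709%), adding miR-448-3p as well. miR-448-3p missed the filter of that edgeR fit and was not tested in it. Without its filter edgeR called 6 of 423 (1.42%), all of them higher. That fit gave far smaller p-values than the others. For miR-182 its adjusted p was 7.84e-06, against 0.295 with edgeR's filter and TMM and 0.987 with DESeq2. For miR-1298 it was 1.9e-53, against 0.0134 with edgeR's filter and TMM.

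**Figure D1:**
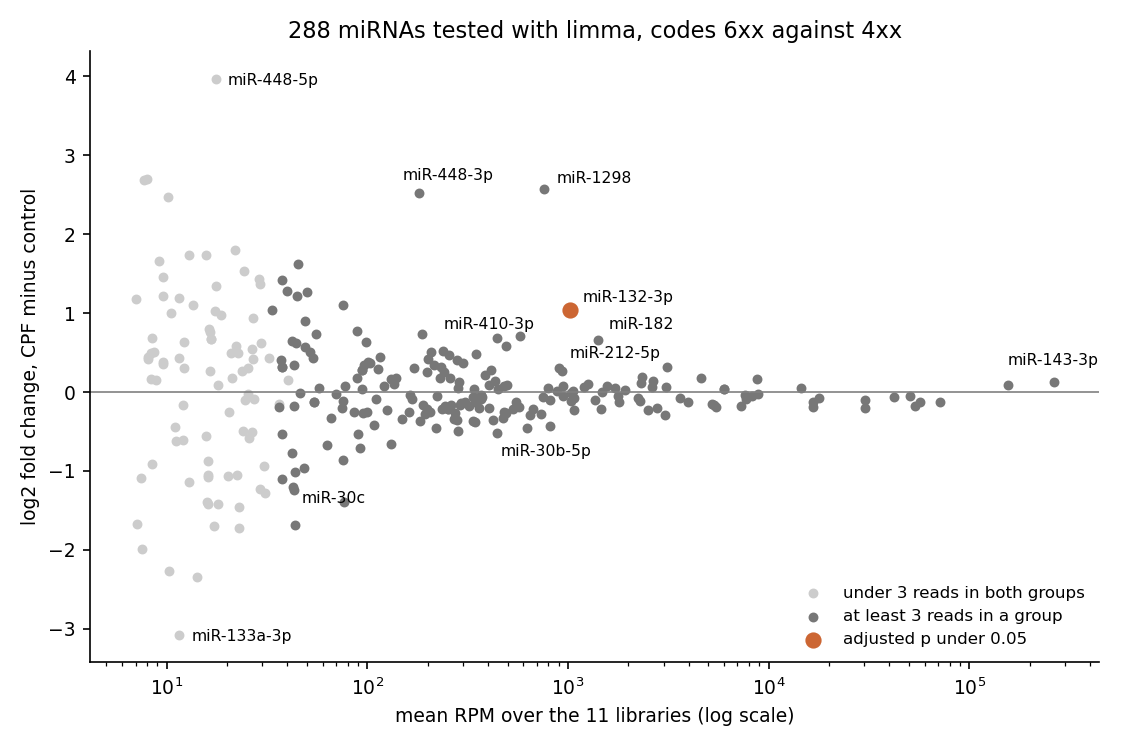
Log2 fold change (CPF minus control, log2(RPM + 1) scale, vertical) of the 288 tested miRNAs against mean RPM over the 11 libraries (log scale, horizontal). Each point is a miRNA, pale where both groups averaged under 3 reads. Only miR-132-3p (orange, 1.04) passed, while the larger values of miR-448-3p and miR-1298 did not.

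miR-132-3p stood in the control libraries, replicates 6 to 11 in turn, at 774, 823, 731, 653, 699.7 and 479 RPM. In the CPF libraries, replicates 7 to 11, it stood at 1243, 1188, 1296, 1816 and 1574 RPM. The lowest CPF library was above the highest control library, so the groups did not overlap. Means were 693 ± 120 RPM (SD, n = 6) and 1423 ± 265 RPM (SD, n = 5), from 50.5 reads per control library. The log2 fold change was 1.04 (SE 0.160, 95% CI 0.70 to 1.37), or 2.05-fold (1.63 to 2.59), with a limma adjusted p of 0.00104. Its exact permutation p over the 11 libraries was 0.00216, the smallest this design allows, and 0.312 after adjustment over the tested names. No miRNA passed by that test, in which a pass needs many names at the smallest p.

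The rise of miR-132-3p was at least as large without the libraries rich in choroid plexus miRNAs. CPF replicates 10 and 11, with the lowest choroid plexus shares of the CPF group, held its highest levels. Without CPF replicates 7, 8 and 9 the log2 fold change was 1.31 (limma adjusted p = 0.00442). Leaving out each library in turn gave 0.94 to 1.10, with an adjusted p under 0.05 in 11 of 11 fits.

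**Figure D2:**
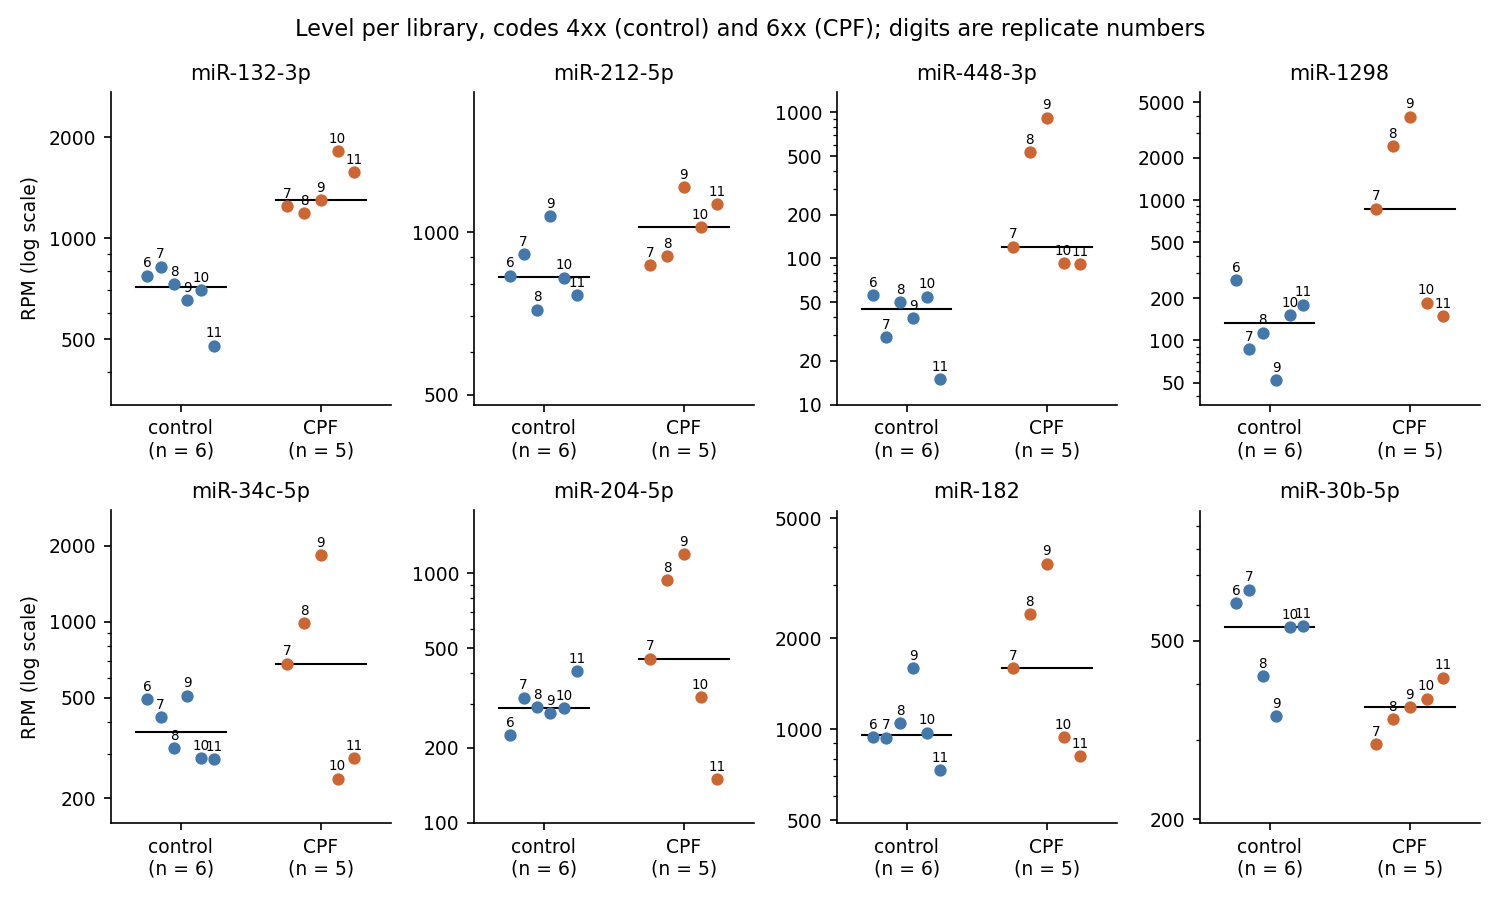
RPM per library (log scale) of 8 miRNAs in control (blue, n = 6) and CPF (orange, n = 5) libraries, each point a library with its replicate number and each line a group median. The groups do not overlap for miR-132-3p and miR-448-3p; CPF replicates 7, 8 and 9 are the 3 highest libraries for miR-448-3p, miR-1298, miR-34c-5p and miR-204-5p.

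The neighbouring gene gives miR-212-5p as its main product here. It stood at 830, 909, 718, 1070.4, 823 and 764 RPM in control replicates 6 to 11. CPF replicates 7 to 11 had 869, 903, 1212, 1020.5 and 1126 RPM. The groups overlapped, with 2 of 5 CPF libraries above the highest control. Means were 852 ± 125 and 1026 ± 145 RPM, and the log2 fold change of 0.27 (95% CI -0.03 to 0.57) did not pass (limma adjusted p = 0.744). An upper bound of 0.57 leaves room for a difference of that size, so the test does not show that miR-212-5p was alike in both groups.

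The other arms of both genes were near the floor. miR-132-5p was at 0 to 28.1 RPM in control and 0 to 37.1 RPM in CPF libraries. miR-212-3p, which carries the seed of miR-132-3p, was at 14.1 to 65.3 RPM and 0 to 149 RPM. miR-132-3p thus took 98.3 ± 1.9% of the reads of its gene in control and 99.0 ± 1.24% in CPF libraries. For miR-212 the 5p arm took 96.3 ± 1.92% and 94.6 ± 4.31%. The seed AACAGUC was accordingly carried mainly by miR-132-3p in both groups.

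Of the 203 tested names averaging at least 3 reads in a group, miR-1298 and miR-448-3p, both of the choroid plexus, had the log2 fold changes furthest from 0, and neither passed. miR-448-3p and miR-1298 are encoded in the gene of the serotonin receptor Htr2c, which the choroid plexus expresses strongly; RefSeq (GRCr8) places 5 miRNA genes in it. miR-448-3p stood at 56.3, 28.9, 50.4, 39.2, 54.9 and 14.97 RPM in control replicates 6 to 11. In CPF replicates 7 to 11 it stood at 120, 532, 920, 92.8 and 91.9 RPM. Every CPF library was above every control, yet the CPF libraries themselves were far apart. Means were 40.8 ± 16.4 and 351 ± 369 RPM, and the log2 fold change was 2.52 (95% CI 1.28 to 3.77, limma adjusted p = 0.0652). In reads this was 3 against 22.2 per library. Without CPF replicates 7, 8 and 9 it was 1.29 (adjusted p = 0.976).

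miR-1298 showed the same 3 libraries. Control replicates 6 to 11 had 267, 86.6, 113, 52.2, 151 and 179.7 RPM, and CPF replicates 7 to 11 had 869, 2425, 3929, 186 and 149 RPM. CPF replicates 7, 8 and 9 were above all controls, while CPF replicates 10 and 11 lay inside the control range. The log2 fold change was 2.57 (95% CI 1.16 to 3.99, limma adjusted p = 0.119), with means of 142 ± 76.3 and 1512 ± 1636 RPM. It was 0.42 (adjusted p = 0.976) without those 3 libraries, whose part in the result was not tested further. Without CPF replicate 10 or without CPF replicate 11, miR-1298 (adjusted p = 0.0255 and 0.0118) and miR-448-3p (0.0255 and 0.0211) both passed.

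The other defining names of the list followed the same libraries. miR-34c-5p, an miRNA of cells with motile cilia, was at 284 to 509 RPM in control libraries. CPF replicates 7 to 11 had 682, 990, 1839, 239 and 287 RPM, and its log2 fold change of 0.71 did not pass (limma adjusted p = 0.744). miR-204-5p, abundant in the choroid plexus, was at 225 to 404.25 RPM in control libraries. CPF replicates 7 to 11 had 454, 940, 1191, 318 and 149 RPM (0.69, adjusted p = 0.744). Both were above every control in CPF replicates 7, 8 and 9 only. miR-448-5p, the other arm of the miR-448 hairpin, was at 28.1 RPM in control replicate 6 and at 0 in the other controls, and at 12.4 to 62.7 RPM in CPF libraries, under the floor on average.

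Of the 9 names in the choroid plexus and ependyma list 7 were tested, and 0 passed. Log2 fold changes above 0 were found in 7 of 7, against 49.0% of all tested names, and the median was 1.801 against -0.02. miR-448-5p, at 0 in every control but replicate 6, met the filter through the CPF libraries. Its sign was thus fixed in advance. Only 4 of the 7 averaged at least 3 reads in a group, and their median was 1.62. Without CPF replicates 7, 8 and 9, 2 of 4 tested names were above 0, with a median of -0.01. The filter was applied anew there, so the 2 medians cover different sets of names. Of the names not tested, miR-34b-3p was at 0 in all controls and at 40.1, 20.9 and 13.3 RPM in CPF replicates 7, 9 and 10, and miR-211-5p had 1 read in control replicate 6. miR-764-3p, also of the Htr2c gene and chosen after its values were seen, was at 12.6 to 68.6 RPM in control libraries. It was at 23.0 to 83.6 RPM in CPF libraries. These values lie around the floor of 34.5 to 62.7 RPM, so they cannot show whether miR-764-3p followed the same libraries.

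**Figure D3:**
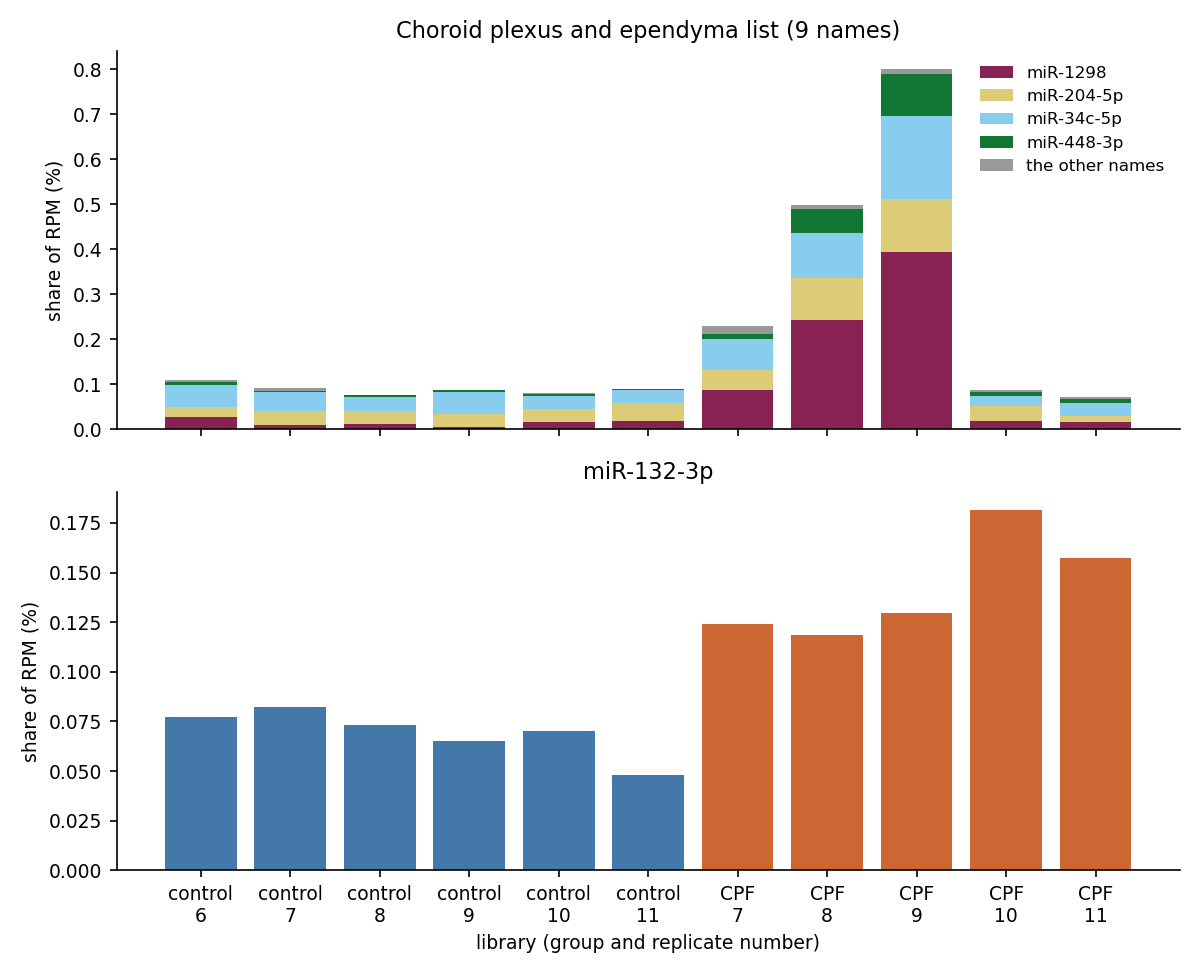
Share of RPM (percent, vertical, linear from 0) in each of the 11 libraries, for the choroid plexus and ependyma list stacked by miRNA (top) and for miR-132-3p (bottom, blue control and orange CPF). The list reaches 0.229 to 0.801% in CPF replicates 7, 8 and 9 and stays at or under 0.110% elsewhere, while miR-132-3p is highest in CPF replicates 10 and 11.

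miR-182, known from sensory cells and from the thalamus, moved with those libraries too. It stood at 942, 938, 1046, 1592, 974 and 734 RPM in control replicates 6 to 11 and at 1590.2, 2400, 3532, 941 and 815 RPM in CPF replicates 7 to 11. CPF replicates 8 and 9 were above all controls, and CPF replicate 7 was level with control replicate 9. The log2 fold change of 0.66 (95% CI 0.04 to 1.28) did not pass (limma adjusted p = 0.744), and it turned to -0.20 without CPF replicates 7, 8 and 9. Its gene neighbours miR-183-5p and miR-96-5p were at 0 in all libraries and at no more than 1 read in any, respectively. In the list for thalamus, hypothalamus and sensory cells 4 of 7 names were tested, 0 passed and 3 were above 0, with a median of 0.56 that turned to -0.20 without the 3 libraries. In the miR-200 family, known from epithelia, 2 of 4 names were tested and 0 passed. Its most abundant member, miR-141-3p, was at 29.9 to 131 RPM in control and 66.8 to 230 RPM in CPF libraries, highest in CPF replicate 9.

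Further names with higher values in CPF did not pass, each with a limma adjusted p of 0.719 or 0.744. miR-410-3p, from the imprinted Dlk1-Dio3 region, was at 409.04 ± 131 and 589 ± 59 RPM (log2 fold change 0.58), with 3 of 5 CPF libraries above every control. miR-301a-3p was at 142 ± 36.4 and 240 ± 81.8 RPM (0.74), with 4 of 5 above every control. miR-135a-5p, a neuron-enriched miRNA, was at 294 ± 47.9 and 413 ± 80.7 RPM (0.48), and miR-28-3p at 197 ± 33.0 and 287 ± 79.4 RPM (0.52), again with 4 of 5 CPF libraries above every control. miR-3557-5p was at 2825 ± 626 and 3486 ± 581 RPM (0.32). Without CPF replicates 7, 8 and 9 these 5 stayed above 0, at 0.24 to 0.87.

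No miRNA fell past the threshold. The smallest p-value among the lower ones belonged to miR-30b-5p, at 604.86, 649, 416, 339, 535 and 539 RPM in control replicates 6 to 11. CPF replicates 7 to 11 had 294, 334, 355, 371 and 413 RPM. The groups overlapped: 2 of 5 CPF libraries were below every control, and 3 lay between control replicates 9 and 8. Means were 514 ± 116 and 354 ± 44.2 RPM, with a log2 fold change of -0.51 (95% CI -0.92 to -0.11, limma adjusted p = 0.744).

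miR-30b-5p belongs to the miR-30 family, which is abundant in brain. The list took every name with a miR-30a to miR-30e stem, both arms included, so not all its names carry the seed GUAAACA. Arms of the same hairpin count as separate names. All 12 names of the list were tested, and 0 passed. Log2 fold changes above 0 were found in 0 of 12, against 49.0% of all tested names, and the median was -0.22 against -0.02. No name of the family was above 0 with median-ratio scaling (12 tested) or with edgeR and TMM (7 tested) either. miR-30d-5p, its most abundant name, was at 71267 to 79713 RPM in control libraries and at 59854, 62486, 67323, 73978 and 76943 RPM in CPF replicates 7 to 11. miR-30e-5p was at 13968 to 22284 and 14568 to 17110 RPM. miR-30c, a name apart from miR-30c-5p, was close to the floor at 57.8 ± 21.8 and 24.3 ± 9.65 RPM (log2 fold change -1.20).

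The miR-30 family also followed the libraries that stood apart. It took 9.72 ± 0.53% of RPM in control libraries (9.14 to 10.7%) and 8.03, 8.29 and 8.62% in CPF replicates 7, 8 and 9. CPF replicates 10 and 11 had 9.62 and 9.79%, inside the control range. Without the 3 libraries 3 of 11 tested names were above 0, and the median was -0.16. The part of these libraries in the result was not tested further. RPM are shares of a fixed total, so a miRNA's RPM also depends on all the others.

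Other names with lower values in CPF had adjusted p-values of 0.744 with limma. miR-100-5p was at 2694 ± 196 and 2307 ± 220 RPM (log2 fold change -0.23), and 3 of 5 CPF libraries were below every control. The neuron-enriched miR-128-3p was at 696 ± 63.8 and 535 ± 185 RPM (-0.45), with its lowest level, 272 RPM, in CPF replicate 9. The split of its reads with the near-identical miR-128 is uncertain. miR-551b-3p was at 911 ± 169.9 and 689.8 ± 205 RPM (-0.43), and miR-9a-3p at 3295 ± 346 and 2752 ± 629 RPM (-0.29). In both, CPF replicates 7, 8 and 9 held the lowest levels of the CPF group, and the values without them were -0.01 and 0.03. miR-3068-5p (705 ± 54.8 and 577 ± 67.8 RPM) was 0.29 lower on the log2 scale. miR-345-3p was at 156 ± 38.6 and 100.9 ± 39.9 RPM (-0.66), and its value was -0.87 without the 3 libraries. miR-199a-3p, at 95.7 ± 36.04 and 52.2 ± 18.9 RPM (-0.86), and miR-17-5p, at 55.7 ± 16.7 and 28.7 ± 22.5 RPM (-1.68), were near the floor. The value of miR-17-5p rested on CPF replicate 7, where it was at 0: it was -0.67 without that library, and -0.85 with edgeR without a filter and -0.87 with DESeq2 on the recovered reads. The muscle miRNA miR-133a-3p was under it in both groups, at 18.9 ± 14.4 and 2.65 ± 5.93 RPM.

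Lists of miRNAs tied to the pathway were read by their counts. The acetylcholinesterase-linked list holds both arms of miRNA genes linked to the acetylcholinesterase transcript. Of its 9 tested names miR-132-3p rose and 8 did not pass, and the median log2 fold change was -0.02, as over all names. Over all tested names 1 of 288 (0.347%) passed, and miR-132 was put in both this list and the next. miR-186-5p was at 830 to 1258 RPM in control and 641 to 1524 RPM in CPF libraries, and miR-125b-5p at 809 to 1595 and 847 to 1082 RPM. In the list of activity-regulated and synaptic miRNAs 1 of 23 tested names rose, miR-132-3p again, 22 did not pass and 12 were above 0, with a median of 0.11 (-0.05 without CPF replicates 7, 8 and 9). miR-26a-5p was at 4610 to 7144 RPM in control and 4410 to 5800 RPM in CPF libraries. The synaptic regulator miR-138-5p was at 1976 to 2814 and 2001 to 2459 RPM.

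**Figure D4:**
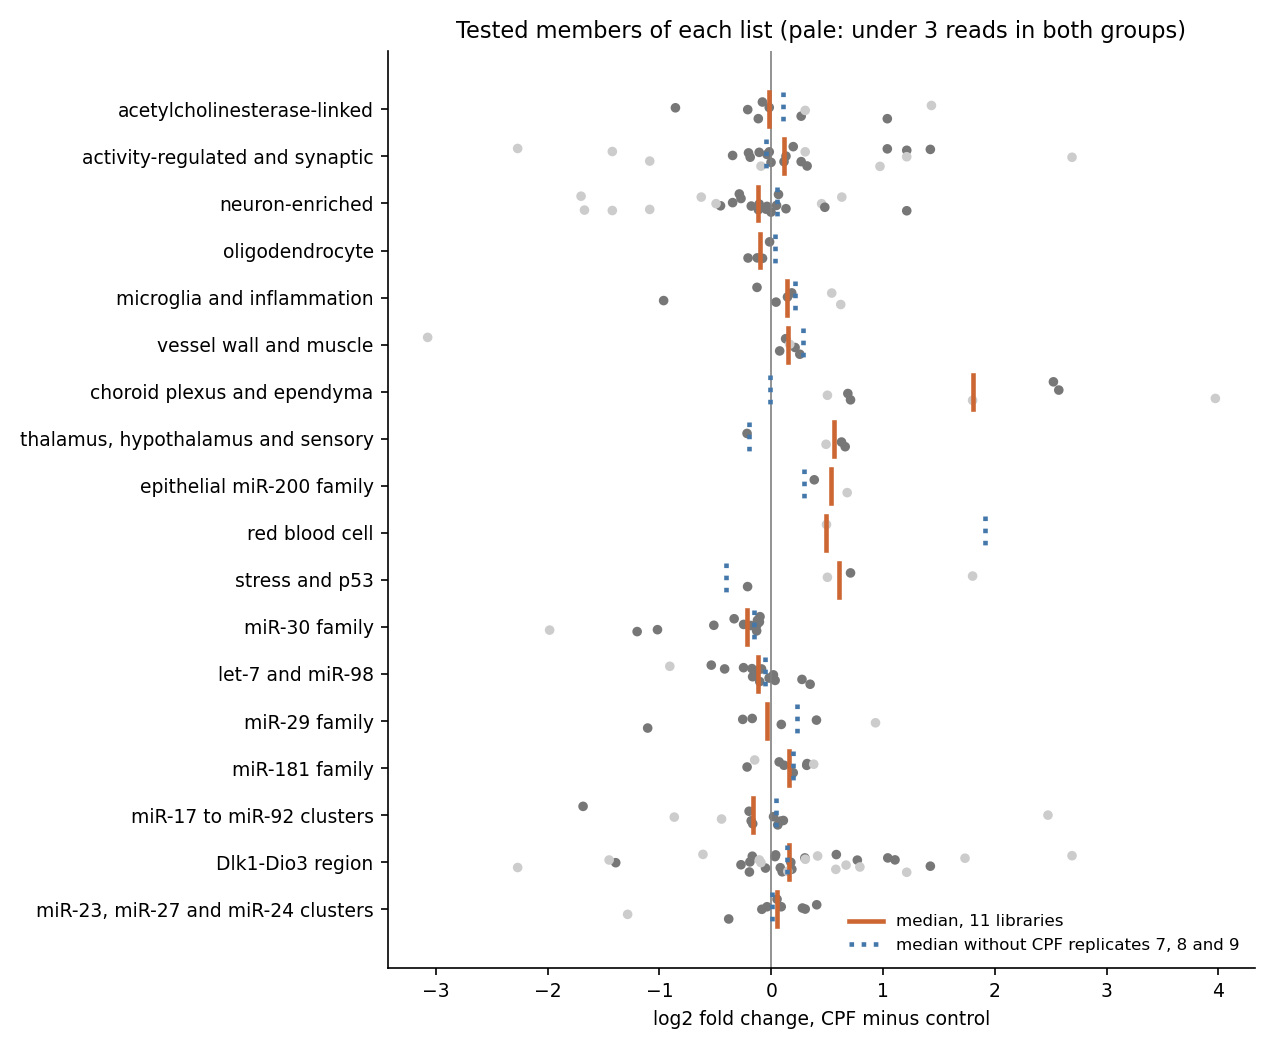
Log2 fold change (CPF minus control, log2(RPM + 1) scale, horizontal) of the tested names in each of 18 lists, each point a miRNA, pale where both groups averaged under 3 reads. Orange bars are medians over the 11 libraries and dotted blue bars medians without CPF replicates 7, 8 and 9, over the names tested in each. The choroid plexus list shifts from 1.801 (7 names) to -0.01 (4 names), and most other lists lie near 0.

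The lists for cell types held no name that passed. Of 23 tested neuron-enriched names 7 were above 0, with a median of -0.12, and 14 of 21 without CPF replicates 7, 8 and 9. In the oligodendrocyte list 0 of 4 were above 0 (median -0.10), and 3 of 4 without those libraries. Its leading member miR-338-3p was at 43268 to 86540 RPM in control and 41635 to 70373 RPM in CPF libraries. Microglial and inflammatory miRNAs had 5 of 7 above 0 (median 0.15), with miR-21-5p at 2062 to 2725 and 2320 to 3060 RPM and miR-223-3p, an miRNA of myeloid cells, at 0 in 10 of 11 libraries. The vessel wall and muscle list had 5 of 6 above 0 (median 0.15). The red blood cell list had 1 tested name under the floor, and miR-451-5p, its defining member, did not exceed 20.9 RPM. Of 4 tested names in the stress and p53 list 3 were above 0 (median 0.61), among them both tested arms of miR-34c, and 0 of 2 without the 3 libraries.

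Further lists were drawn up by family or genomic cluster. The let-7 and miR-98 list had 4 of 14 above 0 (median -0.12), with let-7i-5p at 26968 to 34139 RPM in control and 25855 to 33662 RPM in CPF libraries. The miR-29 family had 3 of 6 (-0.04), the miR-181 family 6 of 8 (0.16), the miR-17 to miR-92 clusters 5 of 11 (-0.17), the Dlk1-Dio3 region 21 of 32 (0.16) and the miR-23, miR-27 and miR-24 clusters 5 of 9 (0.05). None of their names passed. Some names are not separate measurements, since let-7a and miR-3596a, or miR-210-3p and miR-3574, hold identical values in every library.

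None of the 5 most abundant miRNAs passed the test. miR-143-3p, a miRNA of smooth muscle, was the highest in all 11 libraries. It stood at 219900 to 277053 RPM in control and at 283475, 280117, 311596, 255583 and 250388 RPM in CPF replicates 7 to 11, so that CPF replicates 7, 8 and 9 were above every control. Its means were 252527 ± 19609 and 276232 ± 24559 RPM (limma adjusted p = 0.744). miR-27b-3p was at 134284 to 163345 and 143203 to 169545 RPM. miR-29a-3p was at 48431 to 75470 and 42451 to 60713 RPM. How well each miRNA is ligated and amplified also sets its RPM, so levels of different miRNAs are not molar amounts.

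The CPF and control libraries with codes beginning with 3 (n = 6) and 1 (n = 5) allow the same comparison in other libraries, which share none with the 11 described here. Pairing 6 with 4 and 3 with 1 is a choice, since the labels do not link the digits. There miR-132-3p was at 703 ± 213 and 1184 ± 418 RPM, a log2 fold change of 0.73 (95% CI 0.21 to 1.25) that did not pass (limma adjusted p = 0.473). miR-212-5p was at 780 ± 72.2 and 1163 ± 78.3 RPM, and its 0.58 (0.34 to 0.81) did pass (adjusted p = 0.0223), as 1 of 276 names (0.362%). Without adjustment 16 of the 276 (5.80%) had a p under 0.05, 12 higher (4.35%) and 4 lower (1.45%). That call was lost when any of 7 libraries was left out, control replicates 3, 4 or 5 or CPF replicates 2, 3, 5 or 6.

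Whether the CPF effect differed between the 2 sets of codes was tested over all 22 libraries as the difference of the effects. No miRNA passed among 320 tested with limma (0%), with 13 (4.06%) at an unadjusted p under 0.05. edgeR called 0 of 148, with 9 at an unadjusted p under 0.05. The effect on miR-132-3p was 0.30 larger with codes 6 and 4 (95% CI -0.32 to 0.92), and that on miR-212-5p 0.31 smaller (-0.66 to 0.04), so neither was shown to differ. The smallest p-values belonged to miR-28-3p and to a pair of miR-30 names. miR-30b-5p was 0.51 lower in CPF here and 0.16 higher with codes 3 and 1, a difference of -0.67 (95% CI -1.15 to -0.19, limma adjusted p = 0.835). For miR-28-3p the values were 0.52 and -0.34, a difference of 0.86 (0.19 to 1.54), and for miR-30c -1.20 and 0.96, a difference of -2.16 (-3.72 to -0.59), each with an adjusted p of 0.835.

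**Figure D5:**
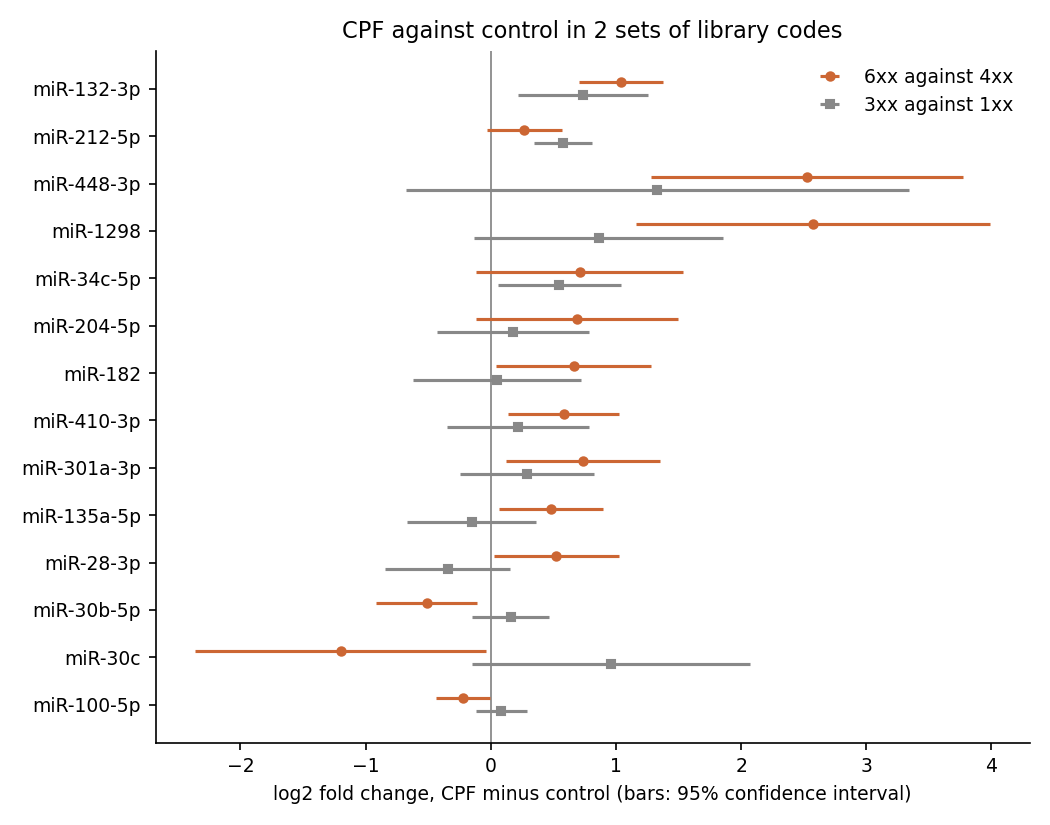
Log2 fold change (CPF minus control, log2(RPM + 1) scale, horizontal) with 95% confidence intervals from limma for 14 miRNAs, in codes 6 against 4 (orange circles) and codes 3 against 1 (grey squares). miR-132-3p is above 0 in both, at 1.04 and 0.73, while miR-28-3p, miR-135a-5p, miR-30b-5p, miR-30c and miR-100-5p lie on opposite sides of 0, without a difference that passed.

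miR-1298 and miR-448-3p varied less among the CPF libraries with code 3 than among those with code 6, while the controls with code 1 varied more than those with code 4 (SD of RPM). miR-1298 was at 122 ± 86.5 RPM in control and 198 ± 87.5 RPM in CPF (log2 fold change 0.86), and miR-448-3p at 55.3 ± 44.1 and 74.7 ± 34.1 RPM (1.33). In the list 5 of 6 tested names were above 0, with a median of 0.71, and 0 passed. The difference of the effects was 1.71 for miR-1298 (95% CI -0.15 to 3.56) and 1.19 for miR-448-3p (-1.24 to 3.63), each with a limma adjusted p of 0.835. For the miR-30 family 3 of 10 tested names were above 0 with codes 3 and 1, with a median of -0.07.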

How the data were processed

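Libraries of CA1 small RNA were built with the TruSeq kit for small RNA and run on a HiScanSQ instrument, per the labels' protocols. Bowtie, Partek 6.6, cutadapt 1.2, CASAVA 1.8.2 and the build rn4 are listed, with no roles, per the submitters' processing notes. Which miRNA annotation was used, and whether counting used strand, is not given in the sources used here, so the split of reads between near-identical or overlapping miRNAs is uncertain. The values deposited by the authors are RPM, per the file headers. Each of the 11 files has 484 rows with 468 names, and the 29 rows of 13 repeated names were summed. Of a library's values 95.2 to 98.3% were whole reads within 0.02 RPM in the 11 libraries. Values of 0, which are whole at any step, were counted in. These recovered reads, rounded, served count tests only, and without molecular identifiers they are not independent molecules, so floors cover counting error only. Since the authors' files hold RPM, the main test was limma-trend (limma 3.58.1, R 4.3.3) on log2(RPM + 1), for names with at least 10 RPM in at least 5 of the 11 libraries, 2-sided, with Benjamini-Hochberg adjustment at 0.05. A read equalled 11.5 to 20.9 RPM, so the filter asked only for any read in at least 5 libraries. Of 468 names 41 were at 0 throughout and 139 others missed the filter. Fold changes are on the log2(RPM + 1) scale. For low miRNAs they can understate the change or, where libraries are at 0, exceed the ratio of the means. The comparison with codes 3 and 1 had its own fit, and the difference of effects a fit of 4 code groups over 22 libraries, on the 432 names that all files hold, since that of control replicate 2 has 448 rows. Per-library measures had exact permutation tests (scipy 1.17.1).

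In 10 simulated tables of this comparison (423 names) the share of changed names that limma called was 33.5% at 1.5-fold, 75% at 2-fold and 95% at 4-fold, and 4.91% of its calls were false. The changed names were drawn from the better-read ones, leaving out the 10 most abundant. Many were changed at once, which eases the adjusted threshold, and the spread was set by the mean level. The shares therefore do not hold for low names, for a table with few changes or for names with a wider spread. Tried besides were edgeR 4.0.16 and DESeq2 1.42.0 on recovered reads, other pseudocounts, other filters, scaling by median ratios, rows kept apart, a fit on all 22 libraries, a replicate block and the omission of libraries. Leave-one-out fits of the difference, of codes 3 and 1 and of the per-library measures, and edgeR for codes 3 and 1, were added after seeing the data.

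The comparison and the lists were chosen with earlier results of these data known. Named miRNAs are up to 10 per direction that passed, those of smallest p until 10 per direction were named (at least 3 reads in a group), the 5 of highest mean, the 2 most abundant of each list and any member with an unadjusted p under 0.05, other products or seed sharers of a passing miRNA, those whose groups did not overlap, and the 3 of smallest p in the difference. Others complete a list or were chosen after their values were seen. No coordinates are printed, since the gene table is of GRCr8.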

Additional observations from a re-analysis of the deposited data

Results flagged for a closer look

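In 5 cases the highest or lowest library of a group lay far from the others by Dixon's criterion. These were 4.63% of the groups checked, and chance alone gives about 1 in 20. miR-29a-3p stood at 75470 RPM in control replicate 7, against 48431 to 57656 RPM in the other controls. miR-182 was at 1592 RPM in control replicate 9, against 734 to 1046 RPM. miR-21-3p was at 680.5 RPM in control replicate 8, against 524 to 561 RPM. miR-141-3p was at 230 RPM in CPF replicate 9, against 66.8 to 106.02 RPM in the other CPF libraries. The number of names detected was 259 in CPF replicate 9, against 288 to 294, and this library was also the shallowest, with 47844 reads.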

How the results depend on the processing

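miR-132-3p passed in each of the 14 alternative fits other than leaving out a single library (log2 fold change 1.02 to 1.31) and in 11 of 11 that left out a library. Only the exact permutation test did not call it (adjusted p = 0.312), and a pass there needs many names at the smallest p. The count of names called was 2 with pseudocount 5 (adding miR-448-3p), 3 with pseudocount 15 (adding miR-1298 too), 2 with edgeR and TMM and 2 with RLE (adding miR-1298), 3 with DESeq2, 6 with edgeR and no filter (adding miR-448-3p, miR-1298, miR-182, miR-204-5p and miR-34c-5p), and 1 to 3 in the leave-one-out fits, 3 without CPF replicate 10 or 11. miR-448-3p was not tested in the TMM and RLE fits, as it missed their filter. For codes 3 against 1 the count of names called was 0 to 2 when each library was left out, with miR-409b added without CPF replicate 1. The difference of effects had 0 in all 28 alternatives. The choroid plexus median of 1.801 was 1.13 with pseudocount 5, 0.70 with pseudocount 15, 1.26 with all 22 libraries, and 1.33 to 2.82 in leave-one-out fits. It was -0.01 without CPF replicates 7, 8 and 9, where 4 names were tested against 7 in the main fit. Without CPF replicates 7, 8 and 9 miR-182 turned to -0.20 and miR-9a-3p to 0.031, and the cause was not tested. When each library was left out, the difference in reads ran from -2927 to 6878 and in names detected from -3.33 to 5.42, around main values of 537 and -1.13.

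Replicate numbers were tested for pairing. Same-numbered libraries correlated at -0.12 to 0.11, 1 of 5 pairs passed 0.1, and 1 of 5 correlated best with its own number. No pairing was thus seen, but 5 pairs with many low names cannot show that same-numbered libraries share nothing else. With the replicate block 3 names were called (1.04% of 288), adding miR-448-3p and miR-1298. Control replicate 6 has no CPF library of its number, so it did not enter the estimates of that fit. At 47844 to 87065 reads per library, 85 of the 288 tested names averaged under 3 reads in both groups, and differences in those were not detectable at this depth unless large.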
